A study of Mus musculus with 36 samples.

Results

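Receptors of the tumour necrosis factor (TNF) superfamily were followed through natural killer (NK) cells of mice, namely Tnfrsf9 (ENSMUSG00000028965), Tnfrsf4 (ENSMUSG00000029075), Tnfrsf18 (ENSMUSG00000041954), Tnfrsf1a (ENSMUSG00000030341), Tnfrsf1b (ENSMUSG00000028599) and Fas (ENSMUSG00000024778). Each was taken by its exact symbol, and all 6 were found once in each of the 4 deposited tables, among 32940 listed genes in the table of sorted subsets and 56923 in each of the other tables. Values are TPM, a unit of transcript abundance that corrects for transcript length and scales each library to a common total, so levels of different genes can be compared within a library. The data were 36 RNA sequencing libraries in 12 groups of 3 biological replicates. Mature splenic NK cells (CD27-negative and CD11b-positive) were sorted by their inhibitory receptors for self MHC class I. The TP subset was positive for NKG2A and for both Ly49C and Ly49I. The SP subset was positive only for Ly49I, and the TN subset was negative for all of these. Each subset came from wild-type C57BL/6 mice (WT, B2m+/+) and from B2m-/- mice (KO), which lack the light chain of MHC class I in every cell type. Splenocytes of WT mice were kept for 22 hours with vehicle or with the calcium ionophore ionomycin, and NK cells were then purified. Other NK cells of WT mice came from splenocytes cultured for 48 hours in medium alone or on antibody pairs fixed to the plate, one pair against NKp46 with NKG2D and the other against NKp46 with DNAM-1, all of them activating receptors. The last group was CD27-negative, CD11b-positive NK cells from subcutaneous MC38 B2m-/- tumours of WT mice, taken 10 days after inoculation. MC38 is a colon carcinoma line of C57BL/6 origin. Ages are not given in the labels, and all libraries of a table carry the same batch date. Replicates are labelled biological, but pooling of animals is not described, so p-values measure the spread between these samples.

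Receptors of this family are bound by trimeric ligands and fall into classes by their cytoplasmic tails. Tnfrsf9 (4-1BB, CD137), Tnfrsf4 (OX40) and Tnfrsf18 (GITR) have no death domain, recruit TRAF adaptors, turn on NF-kappaB and act as costimulatory receptors that lymphocytes raise upon activation. Tnfrsf1a (TNFR1) has a death domain and is found on most cells, whereas Tnfrsf1b (TNFR2) signals through TRAF proteins and is found mainly on leukocytes. Fas carries a death domain and starts apoptosis when bound by Fas ligand, which NK cells use to kill targets.

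Of the receptor genes, 4 (Tnfrsf9, Tnfrsf4, Tnfrsf18 and Tnfrsf1b) lie on chromosome 4, whereas Tnfrsf1a lies on chromosome 6 and Fas on chromosome 19. Tnfrsf4 and Tnfrsf18 are near neighbours, with 2 predicted genes between them in the RefSeq gene order. The 250 bases before the start sites of Tnfrsf9 and Tnfrsf18 are shown because these were the only receptors of the 6 with a called change in any comparison. The sequences are those of RefSeq on GRCm38.p6, an earlier build than the GRCm39 named in the submitters' processing notes, and each is written 5′ to 3′ on the + strand, which is the strand of both genes. All 6 receptors had an entry, with 7 windows in all, of which 2 belong to Tnfrsf9. Capitals mark matches to the NF-kappaB consensus, to the AP-1 motif TGANTCA and to the NFAT core GGAAA, on either strand.
Tnfrsf9, start site 1, chr4:150919905-150920154: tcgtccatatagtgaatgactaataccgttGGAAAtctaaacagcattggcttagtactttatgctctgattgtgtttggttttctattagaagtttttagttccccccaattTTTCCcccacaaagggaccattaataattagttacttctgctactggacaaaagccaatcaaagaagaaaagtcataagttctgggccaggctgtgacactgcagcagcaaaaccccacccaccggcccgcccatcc
Tnfrsf9, start site 2, chr4:150927749-150927998: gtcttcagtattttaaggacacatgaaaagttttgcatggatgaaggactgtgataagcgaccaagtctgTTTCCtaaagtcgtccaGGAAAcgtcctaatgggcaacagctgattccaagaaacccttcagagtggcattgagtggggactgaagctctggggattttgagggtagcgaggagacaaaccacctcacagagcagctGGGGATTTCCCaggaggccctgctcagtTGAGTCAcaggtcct
Tnfrsf18, chr4:156026072-156026321: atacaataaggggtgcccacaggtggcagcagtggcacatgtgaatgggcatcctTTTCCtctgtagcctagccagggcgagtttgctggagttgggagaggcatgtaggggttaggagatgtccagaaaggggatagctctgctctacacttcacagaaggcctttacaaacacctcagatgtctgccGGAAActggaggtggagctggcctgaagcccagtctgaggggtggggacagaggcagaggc
The window before the second start site of Tnfrsf9 held 2 overlapping NF-kappaB matches, from 43 to 34 and from 42 to 33 bases before the start. It also held an AP-1 match from 15 to 9 bases before the start. An NFAT core, from 38 to 34 bases, lay within the NF-kappaB matches, and the window held 3 NFAT cores in all. The window before the first start site of Tnfrsf9 and that of Tnfrsf18 held 2 NFAT cores each and neither of the other motifs. Of 32851 RefSeq windows of this length, 7.25% held the NF-kappaB consensus, 6.75% the AP-1 motif and 55.6% the NFAT core. Binding to these windows was not measured in this study, and the TPM do not say which start site was used.

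All 10 markers of NK cells were present in every group, and B2m, the deleted gene, stood at 73.9 to 128 TPM in the 9 KO subset libraries against 2915 to 3420 in the 9 WT subset libraries. In the ionomycin and antibody tables the T-cell markers Cd4 and Cd8b1 were at 0 in all libraries, but Cd3d, Cd3e and Cd3g were not. In medium they reached 11.6, 31.4 and 36.1 TPM, with the NKG2D pair 9.66, 5.40 and 19.0 TPM and with the DNAM-1 pair 14.6, 8.72 and 20.7 TPM. With ionomycin they reached 10.9, 1.84 and 19.3 TPM. Summed T-cell markers were 38.7 to 51.3 TPM with ionomycin and 48.1 to 126 TPM with vehicle. Foxp3, which defines regulatory T cells, did not exceed 5.73 TPM in these tables. Vehicle replicate 3 stood apart. Its summed NK markers were 10600 TPM, against 17303 and 17931 in the other vehicle libraries, and its summed myeloid markers were 311 TPM, against 19.3 and 27.4. Ionomycin replicate 3 also held more myeloid markers, 135 TPM against 42.0 and 22.5. Vehicle replicate 1 differed in other lists. Its regulatory T-cell markers summed to 739 TPM, against 173 and 26.0 in vehicle replicates 2 and 3. Its B and plasma cell markers summed to 54.1 TPM, against 199 and 158. For 6 of the 9 libraries with antibodies or medium, the title and the table column of a sample named different groups. The column names were followed. Grouped by title, none of the calls of a receptor or listed gene against medium held, and the values are given with the results. Sequencing depth cannot be read from TPM. In these bulk samples, fewer cells of a type and less RNA per cell cannot be told apart. Levels were tested only within a table. Tests were made with limma on log2(TPM + 1) over all genes averaging 1 TPM or more across a table, a filter that all 6 receptors passed in the 3 tables tested, and a change was called at a Benjamini-Hochberg adjusted p under 0.05. Log2 changes are on that scale, which understates changes of weakly expressed genes.

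Tnfrsf9 was lower in KO than in WT cells of each subset, and it was the only one of the 6 receptors to differ between genotypes by the test. In WT TP cells its level was 70.2, 64.1 and 77.3 TPM in replicates 1 to 3, and in KO TP cells it was 34.3, 33.0 and 14.5 TPM. WT SP libraries held 81.2, 84.4 and 126 TPM and KO SP libraries 29.1, 31.6 and 22.2 TPM. WT TN libraries held 57.3, 65.3 and 66.0 TPM and KO TN libraries 28.0, 31.2 and 24.1 TPM. All 9 KO libraries, at 14.5 to 34.3 TPM, therefore lay under all 9 WT libraries, at 57.3 to 126 TPM. Counted from the highest gene of a library, Tnfrsf9 stood between places 1551 and 3583 in WT libraries and between places 5505 and 7790 in KO libraries.

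**Figure D1:**
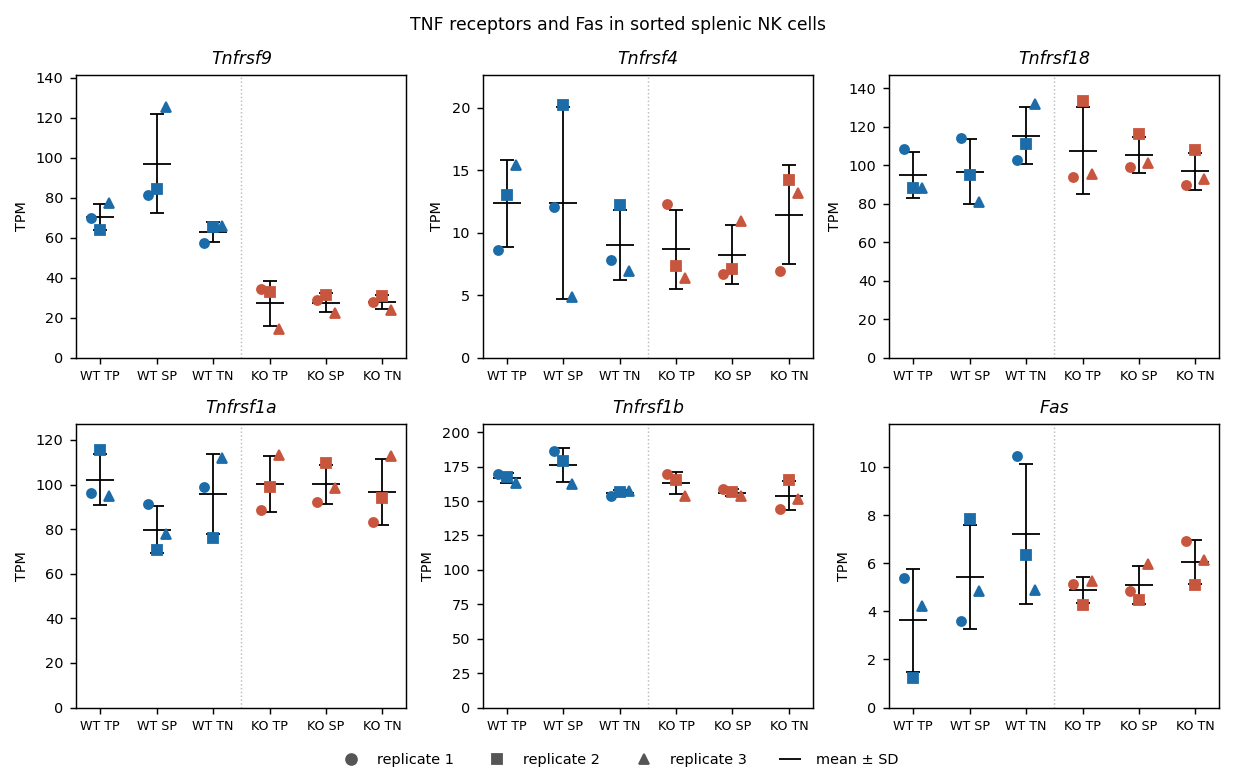
TPM of the 6 receptors (vertical axes, from 0) in the 18 libraries of sorted splenic NK cells, by genotype and subset. Points are single libraries, with a symbol for each replicate number, and black lines give mean ± SD with n = 3. Tnfrsf9 separates the 9 WT libraries (57.3 to 126 TPM) from the 9 KO libraries (14.5 to 34.3 TPM), whereas the genotypes overlap for the other receptors when all subsets are pooled.

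In TP cells the mean of Tnfrsf9 was 2.59-fold lower in KO than in WT, a log2 change of -1.43 (SE 0.256, 95% confidence interval -1.97 to -0.89, limma adjusted p 0.00571, 3 against 3 libraries). It was 1 of the 6 receptors called, where 1.59% of all tested genes were called. In SP cells the mean was 3.52-fold lower, a log2 change of -1.76 (interval -2.31 to -1.22, limma adjusted p 0.000906), again 1 receptor of 6 against 1.35% of all genes. In TN cells it was 2.27-fold lower, a log2 change of -1.16 (interval -1.70 to -0.61, limma adjusted p 0.0471), 1 receptor of 6 against 0.716% of all genes. The SP call held in each of 13 alternative analyses. The TP call was lost when only these 2 groups were fitted (adjusted p 0.2), and the TN call held in 3 of 13 alternatives and was lost without any 1 of its 6 libraries, at adjusted p from 0.1 to 0.207. An exact permutation test of 3 against 3 libraries cannot give a p under 0.1, so these calls rest on the limma model.

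The genotype effect was not shown to differ between TN and TP cells. The interaction, which is the KO difference between TN and TP minus the WT one, was 0.27 for Tnfrsf9 (interval -0.49 to 1.04, limma adjusted p 0.949). None of the 6 receptors was called in it, none had an unadjusted p under 0.05, and 0.025% of all genes were called. Markers of other cells moved with genotype in TP cells. The sum of 10 myeloid markers was 71.2, 115 and 229 TPM in KO TP replicates 1 to 3. It was 19.1 to 21.8 TPM in WT TP libraries, where Fcgr1, Ngp, S100a8 and S100a9 were at 0. The sum of 8 B and plasma cell markers was 334 to 522 TPM in KO TP against 167 to 181 TPM in WT TP libraries. KO TP replicate 3, with the highest myeloid sum, held the lowest Tnfrsf9, 14.5 TPM. Without it the TP log2 change of Tnfrsf9 was -1.04 in place of -1.43, and it was still called (limma adjusted p 0.0137). The T-cell marker Cd3g was called higher in KO TP cells (11.3, 9.02 and 8.20 against 1.11, 2.50 and 0.06 TPM, limma adjusted p 0.0184). Of the 10 NK markers only Ncr1 was called, lower by 0.28 on the log2 scale in TP and 0.25 in SP cells (limma adjusted p 0.0125 and 0.035). The median log2 change of the 10 was 0.06 in both subsets. Their sum was 22928 to 24208 TPM in KO TP and 23104 to 24224 TPM in WT TP libraries. In SP libraries it was 23338 to 24473 TPM in KO and 22363 to 24064 TPM in WT. The part of these markers in the Tnfrsf9 result was not tested. In SP cells, where Tnfrsf9 was 3.52-fold lower, myeloid markers summed to 7.55 to 9.35 TPM in KO and 7.02 to 25.7 TPM in WT, and B and plasma cell markers to 197 to 225 and 181 to 191 TPM. In TN cells the KO libraries held less of both lists by median, with myeloid markers at 4.11 to 12.2 against 11.1 to 19.2 TPM and B and plasma cell markers at 216 to 237 against 282 to 328 TPM. Over the 6 receptors the median log2 change of KO against WT was -0.03 for the TP subset (0.04 over all genes), -0.10 for the SP subset (0.03) and -0.10 for the TN subset (0.02).

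Between subsets of a genotype no receptor was called, with limma and 6 receptors tested each time. In WT cells, TN against TP gave 0 receptors at 1.31% of all genes called, and 1 receptor, Fas, had an unadjusted p under 0.05. SP against TP gave 0 at 0.191% of all genes, with Tnfrsf1a alone under an unadjusted p of 0.05. TN against SP gave 0 at 0.383% of all genes, with Tnfrsf9 and Tnfrsf1b under that level. In KO cells the counts were 0 for TN against TP (0.524% of all genes called), 0 for SP against TP (0.2%) and 0 for TN against SP (0.0416%), and no receptor reached an unadjusted p under 0.05. The order of mean Tnfrsf9 in WT cells was SP at 97.1 ± 24.8, TP at 70.5 ± 6.65 and TN at 62.9 ± 4.87 TPM (SD, n = 3). The SP libraries did not overlap either of the other subsets, but SP against TP (log2 change 0.43, adjusted p 0.705) and TN against SP (-0.59, adjusted p 0.364) both missed the limma threshold. The highest SP value, 126 TPM in replicate 3, was far above the other 2. In KO cells the 3 subset means lay between 27.3 and 27.8 TPM with fully overlapping libraries.

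Tnfrsf18 was expressed at a similar level in all 6 sorted groups. Its 18 libraries ran from 80.8 to 134 TPM, with a median of 103 TPM in WT and 99.2 TPM in KO cells. WT TN cells held 103, 111 and 132 TPM and WT TP cells, the group with the lowest mean, 109, 88.3 and 88.2 TPM. These groups overlapped (log2 change 0.28, interval -0.05 to 0.61, limma adjusted p 0.503). None of its genotype changes exceeded 0.25 on the log2 scale in size. In KO cells Tnfrsf18 exceeded Tnfrsf9 in every library, with Tnfrsf9 at 0.152 to 0.365 of it. In WT cells the ratio of Tnfrsf9 to Tnfrsf18 was 0.646 to 0.877 in TP, 0.501 to 0.587 in TN and 0.711 to 1.55 in SP libraries.

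Tnfrsf4 was weakly expressed in sorted cells, from 4.88 to 20.2 TPM in WT and from 6.36 to 14.3 TPM in KO libraries. The spread within a group was as wide as any difference between groups: WT SP cells held 12.1, 20.2 and 4.88 TPM. None of its changes passed the limma test, and the intervals were wide, for example -1.36 to 0.40 for KO against WT TP cells.

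Tnfrsf1b was the highest of the 6 receptors in all 18 sorted libraries and varied least. It ran from 154 to 186 TPM in WT and from 144 to 170 TPM in KO cells. WT SP cells held 186, 179 and 162 TPM, against 159, 156 and 153 TPM in KO SP cells. These groups did not overlap, yet the difference was small and not called (log2 change -0.17, interval -0.34 to 0.00, limma adjusted p 0.43). WT TN cells, at 154, 156 and 158 TPM, lay under both other WT subsets without overlap. Neither difference was called, and the limma intervals on the log2 scale ran from -0.26 to 0.07 for TN against TP and from -0.34 to 0.00 for TN against SP.

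Tnfrsf1a, the death-domain TNF receptor, ran from 70.5 to 115 TPM in WT and from 83.2 to 113 TPM in KO cells. It was lowest in WT SP cells, at 91.1, 70.5 and 77.7 TPM. These values lay under all 3 WT TP libraries (96.2, 115 and 94.8 TPM) and all 3 KO SP libraries (92.3, 109 and 98.5 TPM). Neither difference was called, with a log2 change of -0.35 for WT SP against TP (limma adjusted p 0.591) and of 0.33 for KO against WT SP (limma adjusted p 0.427). The ratio of Tnfrsf1b to Tnfrsf1a was 2.05 to 2.54 in WT SP libraries and 1.41 to 2.05 in WT TN libraries, which overlapped at that end. It was 1.45 to 1.76 in WT TP libraries, 1.36 to 1.92 in KO TP, 1.43 to 1.72 in KO SP and 1.35 to 1.76 in KO TN libraries.

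Fas was a low transcript in sorted cells, from 1.23 to 10.4 TPM in WT and from 4.25 to 6.94 TPM in KO libraries. WT TP libraries held 5.40, 1.23 and 4.23 TPM, WT SP libraries 3.60, 7.82 and 4.85 TPM, and WT TN libraries 10.4, 6.32 and 4.87 TPM. The mean was 1.99-fold higher in TN than in TP cells, but the groups overlapped and the change was not called (log2 change 0.91, interval 0.09 to 1.72, limma adjusted p 0.336). Fas ligand (Fasl) was far more abundant than its receptor in the same libraries, at 143 to 207 TPM.

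In splenocyte cultures Tnfrsf18 was lower with ionomycin than with vehicle. The ionomycin libraries held 58.4, 40.1 and 22.3 TPM and the vehicle libraries 165, 143 and 94.4 TPM, so that the groups did not overlap. The mean was 3.34-fold lower, a log2 change of -1.78 (SE 0.381, interval -2.64 to -0.91, limma adjusted p 0.0471). This was 1 call among the 6 receptors, where 2.91% of all genes were called. The direction held in all 12 alternatives, from -2.09 to -1.42, but the call held in only 1 of them, the fit with replicate number as a block (adjusted p 0.0178). Without any 1 of the 6 libraries it was lost, at adjusted p from 0.0894 to 0.254. Without vehicle replicate 3 the change was -2.01. Markers of NK cells summed to 7351 to 9579 TPM with ionomycin and to 10600 to 17931 TPM with vehicle. Of these 10 markers, Ncr1 fell by 2.64 and Gzma by 2.21 on the log2 scale (limma adjusted p 0.0045 and 0.00767), and no other was called. The median log2 change of the 10 was -0.54, against -0.00 over all genes, and 6 had an unadjusted limma p under 0.05. Gzma went from 3222 to 6271 TPM with vehicle to 867 to 1344 TPM with ionomycin. Eomes stood higher, at 587 to 801 against 160 to 431 TPM, whereas Tbx21 and Nkg7 overlapped. Markers of regulatory T cells, which express Tnfrsf18 strongly, summed to 21.9 to 82.1 TPM with ionomycin. With vehicle they summed to 739, 173 and 26.0 TPM in replicates 1 to 3, the same order as Tnfrsf18. The vehicle sum was made up mostly of Il2ra and Ctla4, with Foxp3 at 0 to 5.73 TPM and Cd4 at 0. T-cell markers summed to 38.7 to 51.3 TPM with ionomycin and to 48.1 to 126 TPM with vehicle. Ionomycin replicate 3, with the raised myeloid markers, held the lowest Tnfrsf18, and without it the call was lost at a log2 change of -1.42 (adjusted p 0.216). The part of any of these lists in the Tnfrsf18 result was not tested.

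Tnfrsf9 was the most abundant of the 6 receptors in 5 of the 6 splenocyte cultures. It held 1925, 1457 and 1351 TPM with ionomycin, which placed it between the 71st and the 114th gene of a library. With vehicle it held 1613, 1059 and 171 TPM. The low value belongs to vehicle replicate 3, the library with the highest sum of myeloid markers, where Tnfrsf1b was the highest of the receptors. The groups overlapped and the change was not called (log2 change 1.23, interval -0.37 to 2.83, limma adjusted p 0.479). Without vehicle replicate 3 it was 0.25 (adjusted p 0.652), so the size of the difference rested on that library. Tnfrsf9 exceeded Tnfrsf18 by 33.0 to 60.6 times with ionomycin and by 1.82 to 9.76 times with vehicle.

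The other receptors were not called with ionomycin. Tnfrsf1a was at 38.6, 36.7 and 35.4 TPM with ionomycin, under all vehicle libraries at 42.6, 52.2 and 84.2 TPM (log2 change -0.62, interval -1.33 to 0.09, limma adjusted p 0.413). Without vehicle replicate 3, the highest of these, its change was -0.35. Tnfrsf1b overlapped, at 206, 273 and 264 TPM with ionomycin and 316, 411 and 180 TPM with vehicle. Tnfrsf4 ran from 4.28 to 14.8 TPM with ionomycin and from a listed 0 to 11.1 TPM with vehicle. Fas was at 14.0, 7.73 and 14.7 TPM with ionomycin and at 22.2, 15.9 and a listed 0 TPM with vehicle. Leaving out vehicle replicate 3, which held that 0, turned the log2 change of Fas from 0.80 to -0.64, and neither value passed the test. The median over the 6 receptors was 0.29, against -0.00 over all genes.

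Tnfrsf9 was higher on antibodies than in medium. The level was 340, 376 and 391 TPM in medium, 627, 605 and 650 TPM on antibodies to NKp46 and NKG2D, and 739, 718 and 728 TPM on antibodies to NKp46 and DNAM-1. The 3 groups did not overlap and each was tight. Against medium, the mean was 1.70-fold higher with the NKG2D pair (log2 change 0.77, SE 0.0778, interval 0.59 to 0.94, limma adjusted p 0.00144) and 1.97-fold higher with the DNAM-1 pair (log2 change 0.98, interval 0.81 to 1.15, limma adjusted p 0.000519). In each comparison it was the only receptor of 6 called, where 0.431% of all genes were called for the NKG2D pair and 0.782% for the DNAM-1 pair. Both comparisons share the medium libraries. Both calls held without any 1 of the libraries compared, and the call for the NKG2D pair was lost without a variance trend (adjusted p 0.0622). Grouped by the sample titles in place of the column names, the changes were 0.02 for the NKG2D pair (adjusted p 1) and 0.08 for the DNAM-1 pair (adjusted p 0.954).

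**Figure D2:**
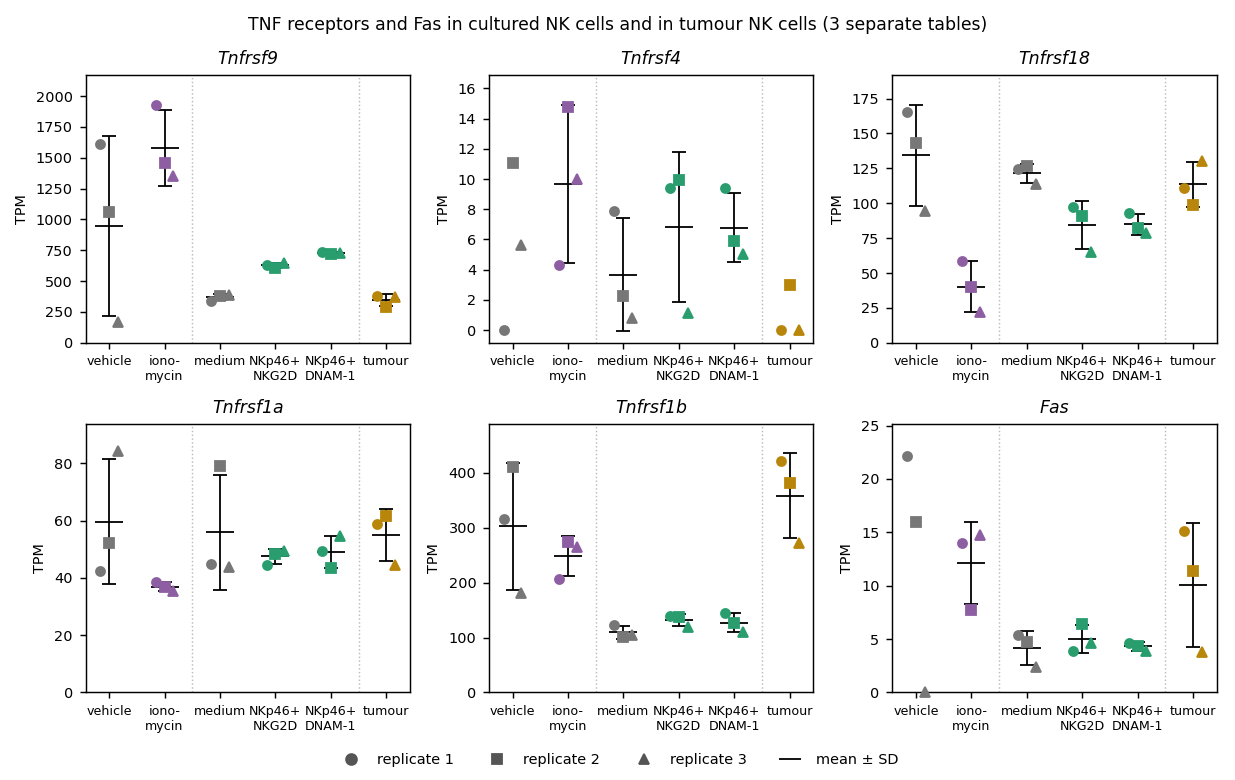
TPM of the 6 receptors (vertical axes) in splenocyte cultures with vehicle or ionomycin, in NK cells kept in medium or on antibodies, and in NK cells from tumours. Dotted lines separate 3 tables, points are single libraries and black lines give mean ± SD with n = 3, left out for groups with a library listed at 0. Tnfrsf9 steps from 340 to 391 TPM in medium to 605 to 650 TPM and 718 to 739 TPM on the antibody pairs, and Tnfrsf18 is lower with ionomycin than with vehicle.

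Between the 2 antibody pairs Tnfrsf9 was lower with NKG2D than with DNAM-1 and the libraries did not overlap, but the difference was not called (log2 change -0.22, interval -0.39 to -0.04, unadjusted limma p 0.0199, adjusted p 1). No receptor of 6 was called there, and 0.0146% of all genes were. The share of Tnfrsf9 in the summed TPM of the 6 receptors was 52.7% to 59.6% in medium, 67.4% to 73.1% with the NKG2D pair and 71.1% to 74.3% with the DNAM-1 pair. Summed NK markers were close in these groups, at 13256 to 14394, 14529 to 15462 and 14039 to 15297 TPM. Markers of regulatory T cells summed to 21.2 to 29.1, 31.6 to 83.0 and 36.9 to 78.9 TPM, with Cd4 at 0 throughout. These sums were made up mostly of Il2ra, followed on antibodies by Ctla4. Foxp3 did not rise with them, at 0 to 5.23 TPM in medium, 0.07 to 2.26 with the NKG2D pair and 0 to 0.05 with the DNAM-1 pair. T-cell markers, with Lef1 the largest part in every library, summed to 96.1 to 240 TPM in medium, 101 to 120 and 86.2 to 134 TPM. The part of either list in the Tnfrsf9 result was not tested. Over the 6 receptors the median log2 change was 0.26 with the NKG2D pair and 0.15 with the DNAM-1 pair, against -0.04 over all genes in each.

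Tnfrsf18 stood lower on both antibody pairs, without a call. It held 124, 126 and 114 TPM in medium, 97.5, 90.9 and 65.0 TPM with the NKG2D pair and 93.3, 82.5 and 78.8 TPM with the DNAM-1 pair. All 6 antibody libraries lay under the 3 medium libraries. The log2 changes were -0.54 (interval -0.89 to -0.18, unadjusted limma p 0.00718, adjusted p 0.176) and -0.51 (interval -0.87 to -0.16, unadjusted limma p 0.00924, adjusted p 0.148), and no alternative brought either under the threshold. Tnfrsf9 exceeded Tnfrsf18 by 2.74 to 3.44 times in medium, 6.43 to 10.0 times with the NKG2D pair and 7.92 to 9.24 times with the DNAM-1 pair.

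The remaining receptors overlapped between medium and antibodies. Tnfrsf1b ran from 101 to 122 TPM in medium, from 119 to 139 TPM with the NKG2D pair and from 110 to 144 TPM with the DNAM-1 pair (limma adjusted p 0.382 and 0.445). Tnfrsf1a ran from 43.5 to 79.0 TPM over the 9 libraries, and Fas from 2.37 to 6.45 TPM. Tnfrsf4 held 7.90, 2.28 and 0.79 TPM in medium, 9.39, 9.97 and 1.10 with the NKG2D pair and 9.39, 5.93 and 5.04 with the DNAM-1 pair. Its limma intervals, -0.90 to 2.36 and -0.61 to 2.65, do not exclude a change of the size seen for Tnfrsf9.

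**Figure D3:**
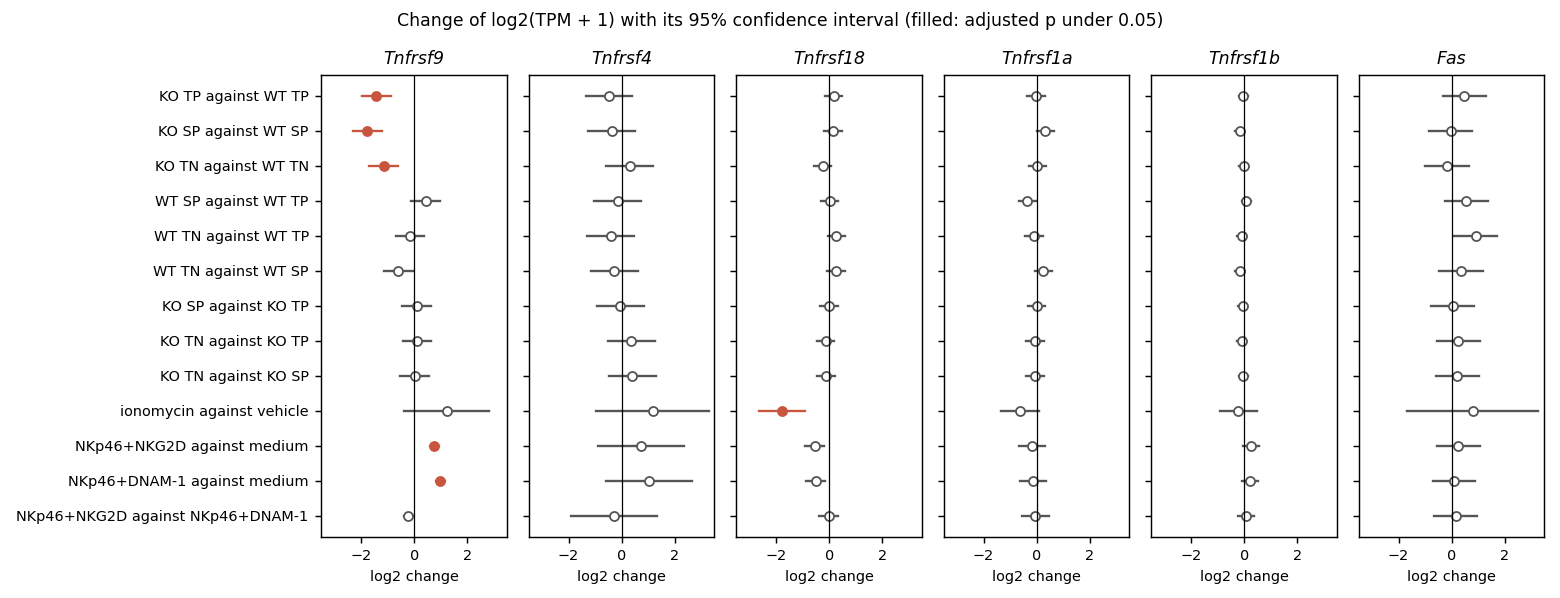
Log2 change (horizontal axis, on the scale of log2(TPM + 1)) of each receptor in 13 comparisons, with 95% confidence intervals from limma. Filled red points passed an adjusted p of 0.05: Tnfrsf9 in the 3 comparisons of KO with WT and in both antibody comparisons with medium, and Tnfrsf18 with ionomycin. Intervals are widest for Tnfrsf4 and Fas. They are narrowest for Tnfrsf1b in the sorted subsets and with ionomycin, and for Tnfrsf9 in the antibody comparisons.

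In NK cells from MC38 B2m-/- tumours the receptors were measured in 1 group alone, so no test was made. The titles describe them as CD27-negative and CD11b-positive with no further subset, whereas the table columns also carry the words B2MKO and SP, which the titles do not explain, so whether these cells are the Ly49I-positive SP subset is not known. Tnfrsf1b held 421, 380 and 272 TPM and Tnfrsf9 held 379, 290 and 370 TPM. Tnfrsf1b was the higher of this pair in 2 libraries and Tnfrsf9 in the third. Tnfrsf18 held 111, 98.9 and 130 TPM, Tnfrsf1a 58.9, 61.5 and 44.6 TPM and Fas 15.2, 11.4 and 3.76 TPM. Tnfrsf4 was listed at 0, 3.00 and 0 TPM. The ratio of Tnfrsf1b to Tnfrsf1a was 6.10 to 7.15. In the separately normalized cultures it was 2.14 to 7.87 with vehicle and 5.34 to 7.45 with ionomycin. It was 1.27 to 2.73 in medium, 2.40 to 3.12 with the NKG2D pair and 2.02 to 2.93 with the DNAM-1 pair. These values are set side by side without a test. Summed tumour and stroma markers were 4.53 to 29.9 TPM and summed T-cell markers 45.9 to 63.4 TPM, with Cd3e, Cd8a and Cd8b1 at 0. Cd4 was not at 0 throughout, and markers of regulatory T cells, which include it, summed to 5.60 to 15.0 TPM. Summed myeloid markers were 39.9 to 73.8 TPM, with Ngp, S100a8 and S100a9 at 0. Markers of B and plasma cells summed to 113 to 165 TPM, with 6 of the 8 at 0. The part of these lists in the receptor levels was not tested.

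Of 17 ligand genes of the family, 8 were tested in sorted cells and 12 in the ionomycin and antibody tables. In sorted cells 1 of 8 was called for KO against WT TP (1.59% of all genes called). The count was also 1 of 8 for WT SP against TP (0.191%) and WT TN against SP (0.383%). With ionomycin 1 of 12 was called (2.91%). Each antibody pair gave 2 of 12 against medium (0.431% for the NKG2D pair and 0.782% for the DNAM-1 pair). No ligand was called in the other comparisons, among them KO against WT in SP (1.35% of all genes) and TN cells (0.716%). The ligands of the 3 costimulatory receptors were scarce in all tables: Tnfsf18, the GITR ligand, did not exceed 0.84 TPM in any library, Tnfsf4, the OX40 ligand, did not exceed 13.1 TPM, and Tnfsf9, the 4-1BB ligand, did not exceed 19.6 TPM. Tnfsf9 was lower in WT TN cells, at 0.32, 0.16 and 1.80 TPM, than in WT TP cells, at 3.75, 2.27 and 7.41 TPM, but was not called (log2 change -1.64, limma adjusted p 0.124). Tnf itself was near 0 in sorted cells, at most 1.03 TPM. In medium it held 40.6, 33.2 and 52.2 TPM, against 3.48, 4.34 and 10.4 TPM with the NKG2D pair, where it fell by 2.70 (limma adjusted p 0.0197). With the DNAM-1 pair it held 9.54, 9.82 and 20.0 TPM and was not called (log2 change -1.66, limma adjusted p 0.098).

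Fasl fell with both antibody pairs, from 350, 329 and 381 TPM in medium to 233, 226 and 187 TPM with the NKG2D pair (log2 change -0.72, limma adjusted p 0.039) and 205, 209 and 171 TPM with the DNAM-1 pair (-0.85, limma adjusted p 0.0158). Fas itself did not pass the test there. Grouped by the sample titles, the log2 change of Fasl was -0.04 and -0.15, that of Tnf 0.00 with the NKG2D pair and that of Tnfsf14 -0.60 with the DNAM-1 pair, and none was called (limma adjusted p from 0.739 to 1). Tnfsf14, or LIGHT, was higher in KO than in WT TP cells, at 72.3, 67.6 and 71.8 against 37.3, 26.6 and 44.8 TPM (log2 change 0.97, limma adjusted p 0.00924). It was not called for KO against WT in SP or TN cells. KO TP cells were also the ones with raised myeloid, B and plasma cell and Cd3g markers, whose part in this result was not tested. Tnfsf14 fell by 1.57 with the DNAM-1 pair (limma adjusted p 0.0325). Ltb, the lymphotoxin subunit, was lower in WT SP cells than in TP cells by 2.38 on the log2 scale (limma adjusted p 0.00824) and higher in TN than in SP cells by 1.92 (limma adjusted p 0.0345). Tnfsf8, the CD30 ligand, rose from 0.99, 0 and 0.61 TPM with vehicle to 61.5, 53.1 and 66.9 TPM with ionomycin (log2 change 5.38, limma adjusted p 0.00199), and was called without vehicle replicate 3 as well (adjusted p 0.023).

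**Figure D4:**
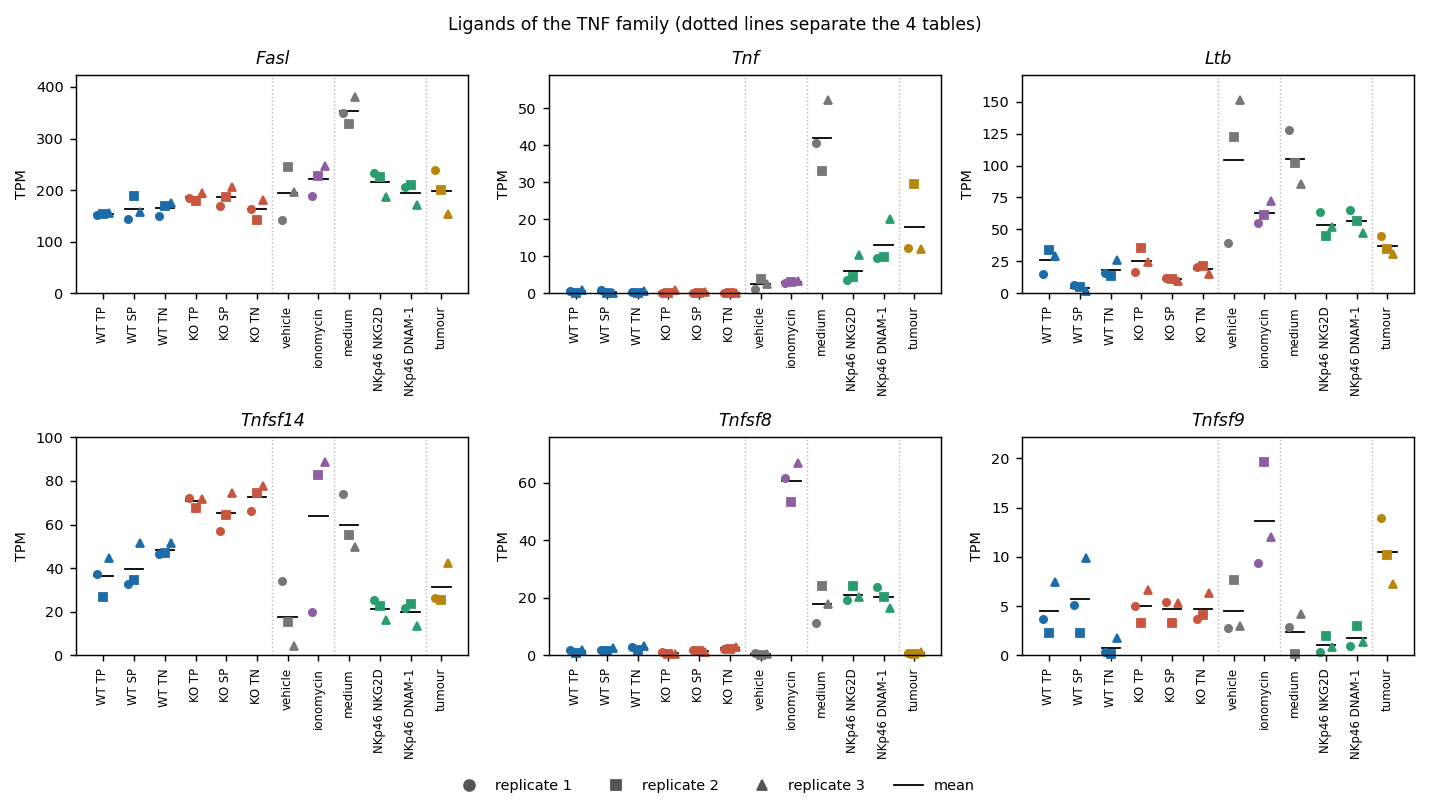
TPM of 6 ligands of the family (vertical axes, from 0) in all 36 libraries, with dotted lines between the 4 separately normalized tables. Points are single libraries and black lines are means of 3. Fasl is the most abundant of the 6 in every library and is lower on both antibody pairs (171 to 233 TPM) than in medium (329 to 381 TPM), and Tnfsf8 is high with ionomycin (53.1 to 66.9 TPM).

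Of 20 other receptors of the family, 9 were tested in sorted cells and 11 in the other tables, and Cd27, a further costimulatory receptor, was the only one called. This is 1 of 9 receptors in WT TN against TP cells (1.31% of all genes called), 1 of 9 in WT TN against SP cells (0.383%) and 1 of 11 with ionomycin (2.91%). It rose by 0.97 in WT TN against TP cells (limma adjusted p 0.000527), by 0.69 in WT TN against SP cells (limma adjusted p 0.0312) and by 2.09 with ionomycin (limma adjusted p 0.0337), where it held 367, 293 and 365 against 38.0, 106 and 123 TPM. Without vehicle replicate 3 the ionomycin change was 2.40 (adjusted p 0.0733). Its protein was a sorting marker of the subsets, which were all taken as CD27-negative. Of 26 adaptor and death-domain genes, all tested, only Birc3, a TRAF-bound ubiquitin ligase, was called, and it fell by 1.22 with ionomycin (limma adjusted p 0.046). That is 1 of 26, where 2.91% of all genes were called, and without vehicle replicate 3 its adjusted p was 0.0792. Traf1, which binds the tails of Tnfrsf9 and Tnfrsf1b, was lower with ionomycin without a call (221, 225 and 241 against 595, 503 and 336 TPM, log2 change -1.02, limma adjusted p 0.0638).

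Of 16 genes of NF-kappaB and its feedback, all tested, Nfkb1 rose by 0.52 in WT TN against TP cells (limma adjusted p 0.00167). That is 1 of 16, where 1.31% of all genes were called. None of the 16 was called for KO against WT in TP, SP or TN cells. There 1.59%, 1.35% and 0.716% of all genes were called, shares at which a count of 0 among 16 genes says little. With ionomycin 1 rose and 2 fell, where 2.91% of all genes were called: Tnfaip3, the feedback inhibitor A20, rose by 1.56 (limma adjusted p 0.0215), whereas Bcl3 fell by 2.50 and Nfkbiz by 1.63 (limma adjusted p 0.0479 and 0.0383). Without vehicle replicate 3, Nfkbiz was no longer called (adjusted p 0.0532) and the others were. With each antibody pair 1 rose and 2 fell, where 0.431% of all genes were called for the NKG2D pair and 0.782% for the DNAM-1 pair. Tnfaip3 rose by 0.51 with the NKG2D pair and 0.62 with the DNAM-1 pair, and it held 178 to 198 TPM in medium, 266 to 281 and 281 to 305 TPM. Nfkbid fell by 1.93 and 2.03, from 141 to 184 TPM in medium to 36.1 to 43.1 and 33.4 to 42.3 TPM, and Nfkbiz fell by 1.31 and 1.05. Grouped by the sample titles, none of these was called, with Nfkbid at -0.09 and -0.24, Nfkbiz at -0.03 and -0.13 and Tnfaip3 at 0.08 and 0.09. Over the 16 genes the median log2 change was 0.02 and 0.09 for these pairs, against -0.04 for all genes in each. With ionomycin it was -0.56 for these genes, -0.43 for the adaptors, -0.39 for the other receptors and 0.24 for the ligands.

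The genes whose pattern was most like that of a receptor were ranked by Pearson correlation of log2(TPM + 1), as a description without a test. Over the 18 sorted libraries, which share a table and the genotype contrast, those most like Tnfrsf9 were Arhgap31 (r = 0.93), Setbp1 (0.92) and B2m (0.92). Over the 15 culture libraries, each table centred on its own mean, they were Nkg7 (0.96), Zbed4 (0.95) and Gusb (0.95), which were at 0.81, 0.73 and 0.78 over 14 libraries without vehicle replicate 3. For Tnfrsf18 in culture they were Arhgap30 (0.96), Fgl2 (0.93) and Lzts1 (0.93), whereas over the sorted libraries no gene exceeded 0.76. The strongest correlation between any pair of the 6 receptors in sorted cells was 0.54, between Tnfrsf9 and Tnfrsf1b. Over the culture libraries it was 0.85, between Tnfrsf9 and Fas, followed by -0.75 between Tnfrsf9 and Tnfrsf1a. Both rested on vehicle replicate 3, without which they were 0.08 and -0.32.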

How the data were processed

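RNA of mouse NK cells was sequenced in 36 libraries. The authors deposited 4 tables of TPM, rounded to 2 decimals; the submitters' processing notes name STAR, RSEM and GRCm39, with no versions. The tables were normalized separately, the subset table holds fewer genes, and depth cannot be recovered from TPM. Groups came from sample titles, and in the antibody table from the column names in the descriptions. Per table, group means were fitted to log2(TPM + 1) by limma 3.58.1 (R 4.3.3), with an intensity trend, for genes averaging 1 TPM or more across the table (12018 in the subset, 14372 in the ionomycin and 13689 in the antibody table). Tests were two-sided, with Benjamini-Hochberg adjustment over all tested genes in each of 14 comparisons and calls at an adjusted p under 0.05. The code was tested on simulated data. All 6 receptors are named in every comparison. From 4 pathway lists (ligands, other receptors, adaptors, NF-kappaB) the called genes with the largest changes and no overlap, up to 3 a direction, are named; other values of list genes (Tnfsf9, Tnfsf4, Tnfsf18, uncalled values of Tnf, Traf1) and all ratios between receptors were chosen after values were seen. Receptors and lists were chosen with earlier results of these data known. Column names of the subset and antibody tables repeat a genotype and number across groups, such as WT1, but the labels do not say whether these mark the same animal. Same-numbered libraries did not pass the check for pairing, which does not show that they came from different animals. Alternatives covered the pseudocount, filter, trend, scaling, block, groups fitted, titles and each library left out. Promoter letters are RefSeq's for GRCm38.p6.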

Additional observations from a re-analysis of the deposited data

How the results depend on the processing

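Of 84 receptor changes, 6 were called and 78 were not. No uncalled change became called under any alternative and 40 of them changed sign at least once, whereas none of the 6 calls did. The call in each comparison was 1 receptor. It became 0 for KO against WT TP cells when only these groups were fitted (adjusted p 0.2). It became 0 for KO against WT TN cells with a pseudocount of 0.1 (0.0509), no filter (0.105), no trend (0.0897) and only these groups (0.0894). For ionomycin it became 0 with a pseudocount of 0.1 (0.0538), no filter (0.114), no trend (0.145), median-of-ratios scaling (0.0663) and quantile normalization (0.0691). For the NKG2D pair it became 0 without a trend (0.0622), and for both pairs with groups from the titles. By title none of the 5 listed genes called in each pair was called, and Tnf with the NKG2D pair changed sign (0.0020). Without vehicle replicate 3, 3 of 6 listed genes called with ionomycin were still called. These checks of listed genes, and of the correlations, were chosen after seeing the data. Leaving out 1 library gave 0 to 0 receptors for KO against WT TN cells and for ionomycin, and 1 to 1 for the other calls. The fits with fewer samples also have fewer residual degrees of freedom; the cause of the other losses was not tested.

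The replicate block changed no call of a receptor: Tnfrsf9 stayed at adjusted p 0.00542 (TP), 0.000844 (SP) and 0.0453 (TN), and Tnfrsf18 with ionomycin was at 0.0178. Deviations of same-numbered libraries correlated at a mean of 0.010 in the subset, 0.062 in the ionomycin and 0.064 in the antibody table, and 0 of 18, 1 of 3 and 1 of 9 pairs were over 0.1. TPM give no counting error, and values of Tnfrsf4 and Fas near 0 limit what could be seen for them.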
